A study of Homo sapiens with 6 samples.

Results

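The genes of respiratory complexes II to V were examined in SW480 cells given Amuc_0904 or buffer. Members were the rows whose symbol follows the naming of succinate dehydrogenase (SDH), the cytochrome bc1 complex (UQCR, UQCC, CYC1), cytochrome c oxidase (COX) and ATP synthase (ATP5), with their assembly factors, plus MT-CYB, MT-CO1 to MT-CO3, MT-ATP6 and MT-ATP8. This gave 71 genes of 60664 in the table, 65 nuclear and 6 encoded by the mitochondrial genome. Another 95 rows with matching symbols that end in P plus a number, the form of pseudogene names, were left out. SW480 is a cell line that grew out of a human colorectal adenocarcinoma, and the labels call the cells wild type in both groups. The buffer group and the Amuc_0904 group each had 3 RNA sequencing libraries. Amuc_0904 is named in the style of the gene tags of Akkermansia muciniphila, a bacterium of the human gut, and neither its preparation nor a dose or exposure time is labelled. All results rest on 1 cell line, and the labels do not say whether replicates were separate cultures, so p-values measure only the spread between these libraries.

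Complexes II to V complete the respiratory chain that begins with complex I. Complex II oxidizes succinate in the citric acid cycle and passes electrons to ubiquinone, complex III passes them on to cytochrome c, and complex IV reduces oxygen. Complexes III and IV pump protons, and complex V, the ATP synthase, lets protons flow back through its membrane part (Fo) to drive ATP synthesis in its catalytic part (F1). Complex II is made of nuclear gene products alone, whereas complexes III, IV and V combine nuclear subunits with subunits translated inside the mitochondrion.

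Values are TPM, each transcript's share of its library scaled by transcript length, so levels can be roughly compared between genes. Where genes overlap, their reads cannot always be told apart, and their levels are less comparable. Listed TPM summed to between 996107 and 997036 per library, and read depth is unknown. The share of TPM from genes of the mitochondrial genome was 9.86% to 12.8%. Summed TPM of 7 colorectal epithelial markers lay between 7907 and 8148 in buffer and between 7092 and 7380 in treated libraries, and all 6 tested markers had log2 fold changes below 0. Of these 6, 5 were lower in every treated library (20.1% of all tested genes were), 4 had an unadjusted p under 0.05 (16.3% of all), and 1 fell (0.999% of all), CDH1 (limma adjusted p = 0.044). The CDH1 call held with another pseudocount and a filter of 5 TPM and ended in the other alternatives run (adjusted p 0.054 to 0.16). The summed TPM of 11 markers of other cell types lay between 1.81 and 4.09, with PTPRC and DCN listed at 0 throughout. Whether the marker levels play a part in the results was not tested. Expression also varied with transcript GC content. For each library a slope with GC was fitted to the deviations of log2 expression from each gene's mean over the 6 libraries. Per 10 percentage points the slopes were 0.0045, 0.093 and 0.054 in buffer replicates 1 to 3. They were -0.042, 0.0021 and -0.11 in Amuc_0904 replicates 1 to 3. All treated slopes lay below all buffer slopes, so the slope differed along with treatment, and its cause was not tested. GC content is taken up with the members below.

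Most genes of complexes II to V did not pass the test, and the 1 that did encodes a small F1 subunit of ATP synthase. Of 71 members, 63 reached the filter of 1 TPM in at least 3 libraries and were tested, among all 14421 tested genes, by limma on log2(TPM + 1) with Benjamini-Hochberg adjustment. At an adjusted p of 0.05, 0 members rose, beside 0.368% of all tested genes, and 1 fell, ATP5F1D, beside 0.999% of all tested genes (1.37% passed in either direction). At an unadjusted p of 0.05, 5 members were higher and 4 lower, where 4.49% and 16.3% of all tested genes were. The median log2 fold change (treated minus buffer) of the tested members was 0.06, and that of all tested genes was -0.06. Log2 fold changes were above 0 for 43 of 63 members (68.3%), and for 37.5% of all tested genes. In bulk RNA, fewer cells that express a gene and less of its RNA per cell cannot be told apart.

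**Figure D1:**
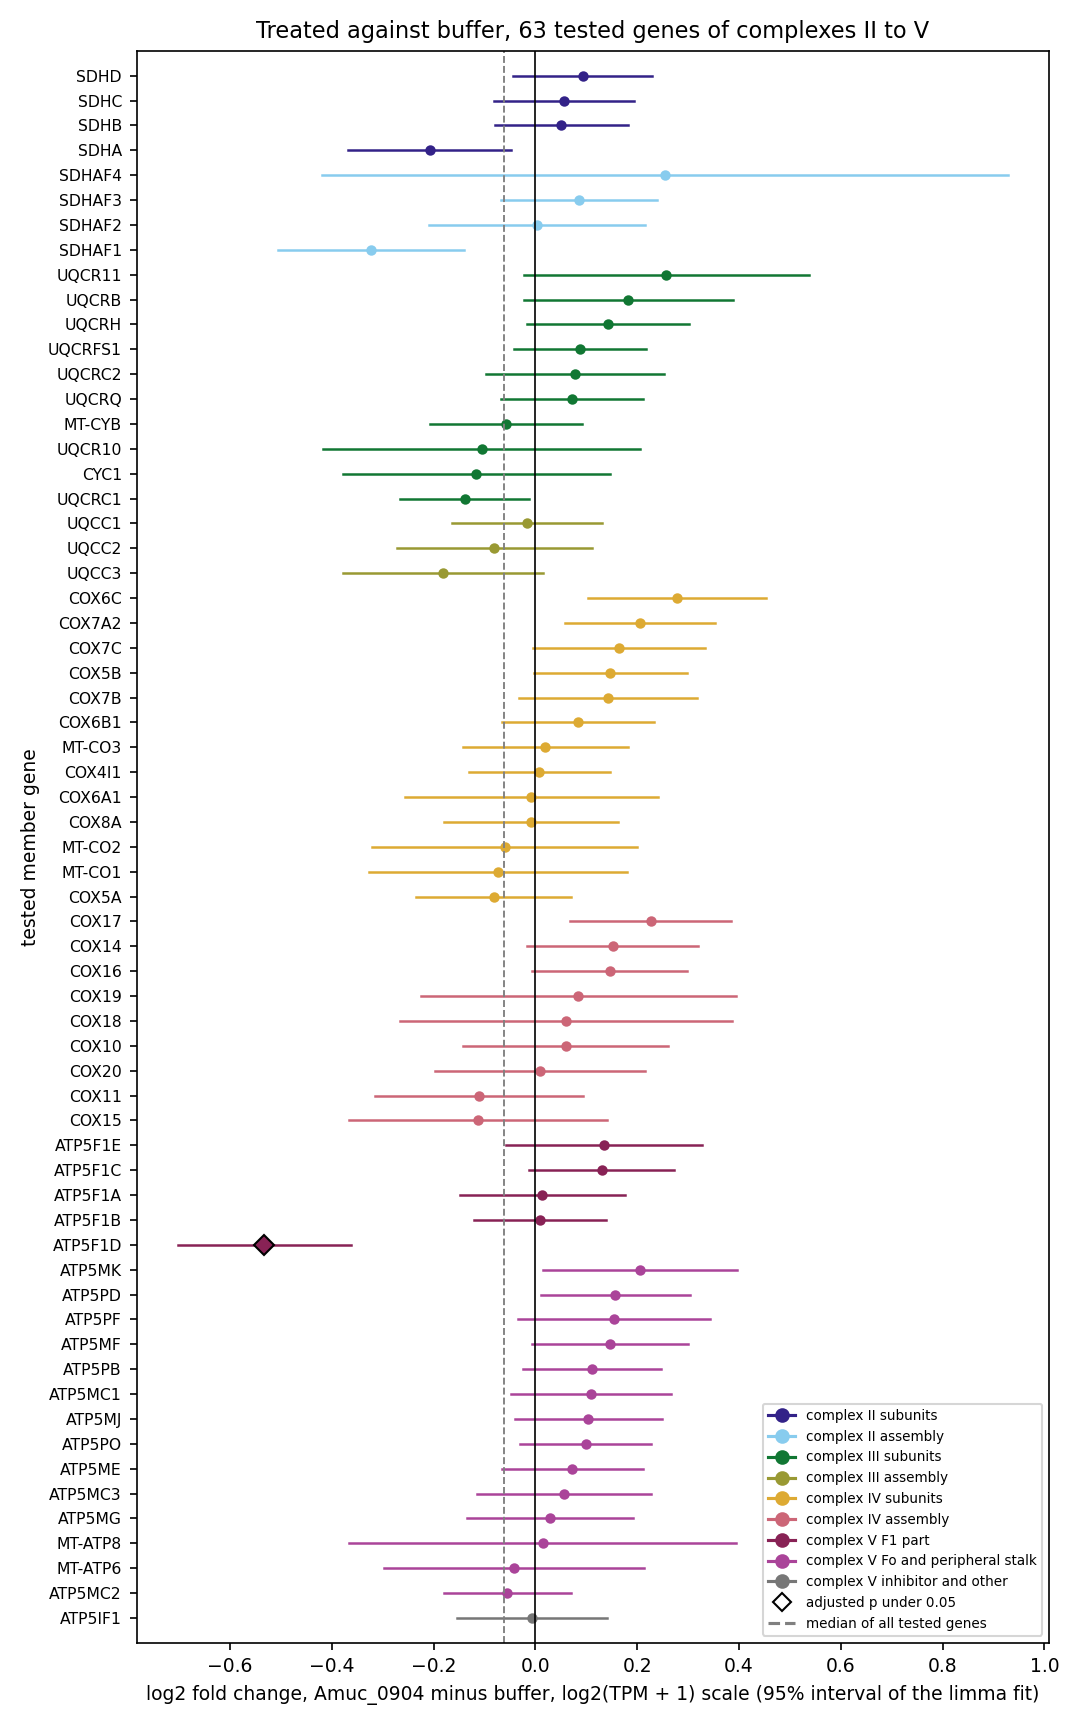
Log2 fold change (x axis, Amuc_0904 minus buffer on the log2(TPM + 1) scale) of the 63 tested genes, grouped by complex and role, with the 95% interval of the limma fit as lines and the median of all tested genes (-0.06) as a dashed line. ATP5F1D (diamond, -0.53) is the gene past an adjusted p of 0.05, and most other intervals include 0.

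ATP5F1D encodes the delta subunit of the central stalk that turns inside F1. It was at 145, 166 and 152 TPM in buffer replicates 1 to 3 and at 109, 111 and 98.7 TPM in Amuc_0904 replicates 1 to 3. All treated libraries lay below all buffer libraries. Means were 154 ± 10.9 TPM in buffer and 106 ± 6.61 TPM in treated cells (SD over 3 libraries each), 31.1% lower. The limma log2 fold change was -0.53 (SE 0.074, adjusted p = 0.020). In GENCODE 29 on GRCh38, ATP5F1D (ENSG00000099624) spans bases 1241746 to 1244826 of chromosome 19, with no other annotated gene over it. The call ended without buffer replicate 2 (adjusted p = 0.076), buffer replicate 3 (0.058) or Amuc_0904 replicate 1 (0.066), with libraries centred on their median (0.063), and with no filter on low TPM (0.10). With the GC trend removed the log2 fold change was -0.33 and the call held (limma adjusted p = 0.030).

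None of the other F1 subunit genes passed, and ATP5F1D alone among them was lower in every treated library. ATP5F1B, the catalytic beta subunit, was at 839, 877 and 849 TPM in buffer and at 831, 844 and 908 TPM in treated libraries. ATP5F1A, the alpha subunit that alternates with beta in the F1 ring, was at 172, 176 and 169 TPM in buffer and at 164, 167 and 192 TPM in treated libraries. Both sets overlap, and the 95% intervals of the log2 fold change ran from -0.12 to 0.14 for ATP5F1B and from -0.15 to 0.18 for ATP5F1A. ATP5F1C, the gamma subunit of the central stalk, was at 217, 193 and 216 TPM in buffer and at 233, 225 and 227 TPM in treated libraries, all treated values above all buffer values (limma adjusted p = 0.28). ATP5F1E, the epsilon subunit that sits beside delta, was at 118, 101 and 109 TPM in buffer and at 131, 119 and 111 TPM with Amuc_0904, which overlap (limma adjusted p = 0.40).

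A ratio of 2 genes within a library does not depend on how the library was scaled. The ratio of ATP5F1D to ATP5F1B was 0.172, 0.189 and 0.179 in buffer and 0.131, 0.132 and 0.109 in treated libraries. Against ATP5F1E, ATP5F1D was the more abundant transcript in every buffer library (ratios 1.22, 1.65 and 1.39) and the less abundant in every treated library (0.830, 0.934 and 0.890). The ratio of ATP5F1B to ATP5F1A, in contrast, was 4.97 ± 0.0780 in buffer and 4.96 ± 0.191 in treated libraries (SD, 3 libraries per group). Such a ratio can still vary with GC content, as the GC slope differed between libraries. The longest transcript has 63.9% GC for ATP5F1D, 38.7% for ATP5F1E, 51.3% for ATP5F1B and 45.7% for ATP5F1A. The part of GC content in these ratios was not tested. As ATP5F1D was singled out by its fold change, the ratios are a description with no test.

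**Figure D2:**
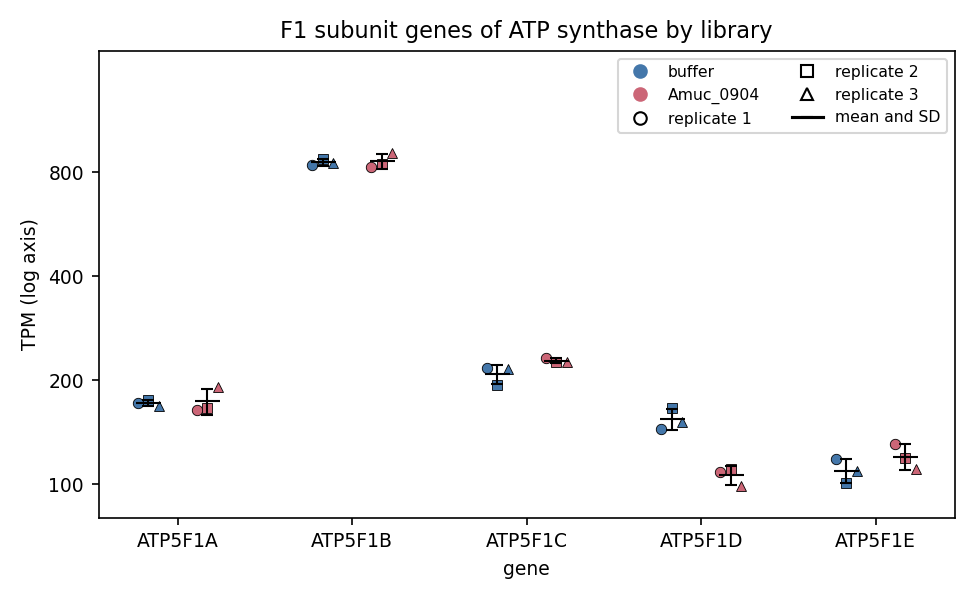
TPM (y axis, log scale) of the 5 F1 subunit genes in each library, with buffer and Amuc_0904 in separate colours, replicates by symbol, and mean and SD as bars. The ATP5F1D values of the treated libraries (98.7 to 111 TPM) lie below those of the buffer libraries (145 to 166 TPM), while those of ATP5F1A and ATP5F1B overlap.

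The Fo part and the peripheral stalk, which holds F1 against the turning rotor, had 14 tested members, 0 of which passed. Of the 12 nuclear ones 11 had a log2 fold change above 0, with a median of 0.11. ATP5MK, a small accessory membrane subunit, had the largest (0.21), with 411, 355 and 437 TPM in buffer and 484, 436 and 465 TPM with Amuc_0904 (limma adjusted p = 0.21). Only its highest buffer and lowest treated values crossed, and without buffer replicate 2 the log2 fold change was 0.12. ATP5PD, subunit d of the peripheral stalk, was at 379, 350 and 386 TPM in buffer and at 440, 404 and 399 TPM in treated libraries, with no overlap between groups (limma adjusted p = 0.21). Treated values were also all above buffer values for ATP5MJ, an accessory membrane subunit (mean 237 and 255 TPM). The most abundant nuclear member of all was ATP5MF, the membrane subunit f, at between 2096 and 2371 TPM in buffer and between 2353 and 2575 TPM in treated libraries. Its gene overlaps PTCD1 and an ATP5MF-PTCD1 readthrough on the same strand.

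The c ring, the rotor that protons turn, is built from 1 protein sequence that 3 genes supply with different targeting sequences. ATP5MC2 gave the largest share of the summed c subunit TPM, 44.3% in buffer and 42.0% in treated libraries. ATP5MC3 gave 30.1% and 30.8%, and ATP5MC1 25.6% and 27.2%. The levels of ATP5MC2 were 479, 496 and 497 TPM in buffer and 463, 495 and 460 TPM in treated libraries, and the 95% interval of its log2 fold change ran from -0.18 to 0.07. None of the 3 passed (lowest limma adjusted p = 0.40, for ATP5MC1). ATP5IF1, which inhibits ATP synthase when it runs backwards, was at 453, 416 and 447 TPM in buffer and at 462, 439 and 410 TPM in treated libraries. Its groups overlap almost entirely (95% interval of the log2 fold change -0.15 to 0.14).

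In complex II the catalytic subunit gene and one assembly factor gene were lower in all treated libraries, and 0 complex II genes passed. SDHA, the flavoprotein that binds succinate, was at 119, 134 and 124 TPM in buffer and at 108, 115 and 103 TPM in treated libraries. The groups do not overlap, but the difference of 13.5% did not pass (limma log2 fold change -0.21, SE 0.070, adjusted p = 0.15). SDHB, the iron-sulfur subunit that takes electrons from SDHA, was at 146, 143 and 153 TPM in buffer and at 157, 153 and 147 TPM in treated libraries, which overlap. The ratio of SDHA to SDHB was 0.818, 0.934 and 0.812 in buffer and 0.688, 0.751 and 0.699 in treated libraries. SDHC and SDHD, the membrane anchors, had log2 fold changes of 0.06 and 0.09, and SDHD had all treated values (146 to 157 TPM) above all buffer values (135 to 145 TPM).

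SDHAF1, an assembly factor needed for the iron-sulfur clusters of SDHB, had the lowest p of the members that did not pass. It was at 24.9, 25.2 and 25.8 TPM in buffer and at 21.5, 20.1 and 18.4 TPM in treated libraries, a difference of 20.8% (limma log2 fold change -0.32, SE 0.080, adjusted p = 0.082). All treated libraries were below all buffer libraries. With the GC trend removed its log2 fold change was -0.13 (limma adjusted p = 0.43). SDHAF2, which attaches the flavin cofactor to SDHA, had nearly equal means (52.8 and 52.9 TPM), and SDHAF3 was at 71.8 and 76.1 TPM. SDHAF4, which binds SDHA before assembly, was the least abundant tested member, at 3.05, 4.08 and 4.41 TPM in buffer and at 6.34, 6.56 and 2.40 TPM in treated libraries. Its treated libraries lie on both sides of the buffer range, and its 95% interval (-0.42 to 0.93) was the widest of all members.

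Complex III had 10 tested subunits, 6 with log2 fold changes above 0 and 4 below, and 0 passed. UQCRC1, a core protein on the matrix side, was lower in all treated libraries (348, 368 and 367 TPM, against 381, 404 and 408 TPM in buffer), and its log2 fold change was -0.14 (limma adjusted p = 0.20). With the GC trend removed this value turned to 0.035. UQCRC2, the other core protein, had overlapping groups with means of 85.9 and 90.8 TPM. UQCRFS1, the Rieske iron-sulfur protein, varied little within groups. It was at 58.2, 59.7 and 57.8 TPM in buffer and at 61.5, 62.6 and 62.7 TPM in treated libraries, so that the groups did not overlap although the means differed by 6.40% (limma adjusted p = 0.42). CYC1, the cytochrome c1 subunit, was at 196, 214 and 236 TPM in buffer and at 209, 224 and 167 TPM in treated libraries, with Amuc_0904 replicate 3 the lowest of all 6.

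Among the small subunits, UQCR11 had the largest log2 fold change (0.26, SE 0.12, limma adjusted p = 0.28). Its buffer values were close together (44.98, 45.85 and 47.56 TPM), and the treated values were 63.8, 59.3 and 44.7 TPM. The third treated library was thus below every buffer library while the other two were above. Without Amuc_0904 replicate 3 the log2 fold change was 0.41 (limma adjusted p = 0.054), and without Amuc_0904 replicate 1 it was 0.16. UQCRB, a matrix-side subunit, was at 223, 174 and 193 TPM in buffer and at 234, 215 and 218 TPM in treated libraries. UQCRH, the hinge protein beside cytochrome c1, was the most abundant nuclear member of complex III, with means of 582 and 642 TPM. Its near-copy UQCRHL was at most 0.09 TPM. The assembly factors UQCC1, UQCC2 and UQCC3, which handle cytochrome b, had log2 fold changes of -0.017, -0.08 and -0.18. UQCC3 had all treated values below all buffer values, by a narrow margin (highest treated 30.6 TPM, lowest buffer 30.61 TPM).

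Complex IV had 13 tested subunits and 9 tested assembly factors, and 0 passed. COX6C, a small membrane subunit, had the largest positive log2 fold change of all members (0.28, SE 0.077, limma adjusted p = 0.10). It was at 252, 209.5 and 243 TPM in buffer and at 295, 280 and 277 TPM in treated libraries, 21.0% higher in the mean and with no overlap. COX7A2, the form of subunit 7A found outside muscle, was at 220, 213 and 242 TPM in buffer and at 261, 267 and 250 TPM in treated libraries, also without overlap (limma adjusted p = 0.13). With the GC trend removed its log2 fold change went from 0.20 to 0.11 (adjusted p = 0.59), while that of COX6C went to 0.27 (adjusted p = 0.18). COX4I1, the largest nuclear subunit, was at 576, 552 and 581 TPM in buffer and at 597, 587 and 536 TPM in treated libraries, and its 95% interval ran from -0.13 to 0.15. The most abundant nuclear subunit of complex IV was COX8A, at 1089 ± 54.5 and 1084 ± 90.5 TPM (SD, 3 libraries per group).

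Of the assembly factors, COX17, the chaperone that brings copper to complex IV, had the highest level and the largest log2 fold change (0.23, SE 0.069, limma adjusted p = 0.12). Its treated libraries were close together (330.2, 324 and 324 TPM) and above all buffer libraries (307, 269 and 261 TPM). COX17 overlaps POPDC2 on the same strand. COX16, which helps to load copper into the second mitochondrially encoded subunit, was also higher in every treated library (47.5 to 50.7 TPM, against 42.1 to 46.3 TPM). COX14, which acts early on the first mitochondrially encoded subunit, was at 109, 117 and 122 TPM in buffer and at 132, 137 and 119 TPM in treated libraries, which overlap. COX10 and COX15, which make heme A, and COX11, a second copper carrier, had log2 fold changes of 0.06, -0.11 and -0.11 with overlapping groups.

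For complex IV subunits that have tissue-specific forms, 1 form of each was past the filter. COX4I2, COX6A2 and COX8C were listed at 0 in all 6 libraries, while COX6A1, the form of subunit 6A outside heart and muscle, was at 715, 815 and 872 TPM in buffer and at 832, 882 and 681 TPM in treated libraries. COX7A1 was at most 0.81 TPM, beside means of 225 and 259.6 TPM for COX7A2. The testis form COX6B2 was at 0.98, 0.79 and 1.04 TPM in buffer and at 0.38, 0.73 and 0.52 TPM in treated libraries, beside means of 886 and 939.9 TPM for COX6B1. The other genes that missed the filter were COX7B2 (at most 0.21 TPM), UQCRHL and ATP5MGL (listed at 0 in all 6). These 8 untested genes make up the difference between 71 and 63. Among the left-out pseudogene rows, 78 of 95 were listed at 0 throughout, and in no case did those of a parent gene sum to more than 0.433% of the parent's mean TPM.

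The mitochondrially encoded members were the most abundant and followed single libraries more than groups. They summed to 70470, 70181 and 62563 TPM in buffer and to 59845, 61970 and 79549 TPM in treated libraries, so that the treated group held both the lowest and the highest library. MT-CO1, the catalytic subunit of complex IV, was at 11228, 11755 and 10326 TPM in buffer and at 9474, 9834 and 12543 TPM in treated libraries. MT-CO2, which receives electrons from cytochrome c, was at 14102, 15384 and 13029 TPM in buffer and at 12242, 12673 and 16069 TPM in treated libraries. MT-ATP6, the proton channel subunit of complex V, was at 6291, 7147 and 6208 TPM in buffer and at 5616, 6055 and 7512 TPM in treated libraries. In each of these 3 genes Amuc_0904 replicate 3 was the highest of all 6 libraries and Amuc_0904 replicate 1 the lowest.

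MT-CO3 (a core subunit of complex IV) and MT-ATP8 (a small Fo subunit) had the same extremes, 12627 and 14201 TPM for the former and 16734 and 25753 TPM for the latter. MT-CYB, the cytochrome b of complex III, was lowest in Amuc_0904 replicate 2 (3100 TPM) and highest in buffer replicate 2 (3491 TPM). The 6 log2 fold changes lay between -0.07 and 0.02, with limma adjusted p of at least 0.66. MT-ATP8 and MT-ATP6 overlap on the mitochondrial genome (8366 to 8572 and 8527 to 9207 in GENCODE 29), as do MT-ATP6 and MT-CO3 by 1 base, so reads in the overlap cannot be assigned between them. Of all 13 protein-coding genes of the mitochondrial genome, complex I genes included, 11 were highest in Amuc_0904 replicate 3 and 11 lowest in Amuc_0904 replicate 1.

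**Figure D3:**
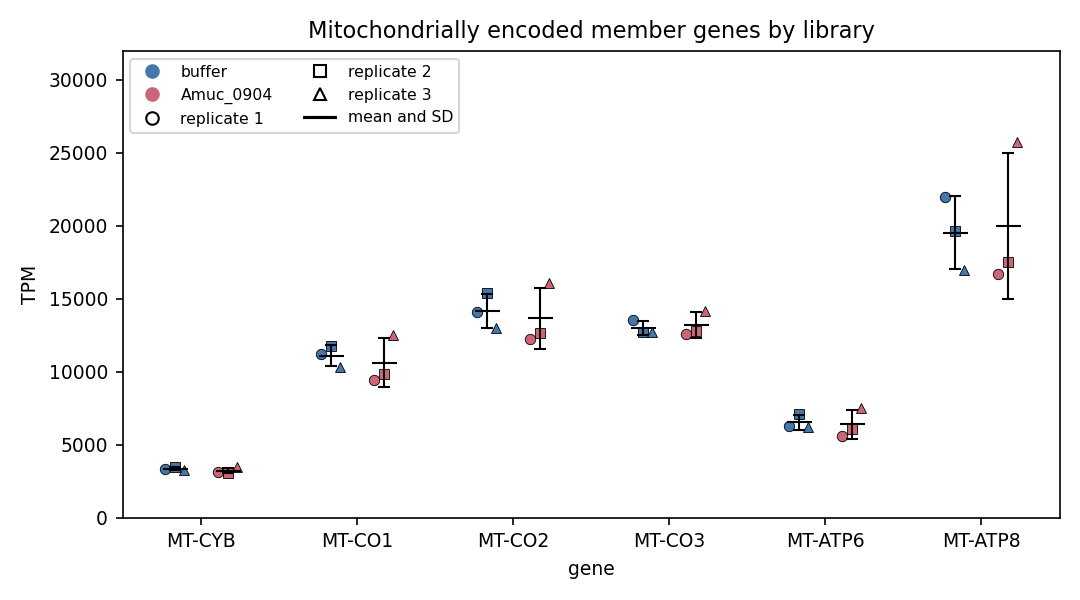
TPM (y axis) of the 6 mitochondrially encoded member genes in each library, with buffer and Amuc_0904 in separate colours, replicates by symbol, and mean and SD as bars. The treated libraries spread more widely than the buffer libraries, with Amuc_0904 replicate 3 (triangles) above replicates 1 and 2 in every gene.

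The nuclear members ran the other way across libraries: in each of the 6, the median deviations of nuclear and of mitochondrially encoded members from their means over all libraries had opposite signs. The median deviation of all tested genes differed in sign from that of the nuclear members in all but buffer replicate 3, and from that of the mitochondrially encoded members in buffer replicate 3 alone. Summed nuclear TPM was 16905, 16246 and 17134 in buffer and 18237, 17666 and 16831 in treated libraries, which overlap. The ratio of summed mitochondrially encoded to summed nuclear TPM was 4.17, 4.32 and 3.65 in buffer and 3.28, 3.51 and 4.73 in treated libraries. In TPM a larger share for one set leaves a smaller share for all others. When the TPM were rescaled without mitochondrially encoded and ribosomal protein genes, the median log2 fold change of the 58 members then tested was 0.10.

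Of the 63 tested members, 14 had treated and buffer libraries that did not overlap. In 9 members (14.3%) all treated libraries were above all buffer libraries, beside 7.00% of all tested genes, and in 5 (7.94%) all were below, beside 20.1% of all tested genes. The 9 were COX6C, COX17, COX7A2, ATP5PD, COX16, ATP5F1C, ATP5MJ, SDHD and UQCRFS1, with differences in the mean between 6.40% and 21.0%. The 5 were ATP5F1D, SDHAF1, SDHA, UQCC3 and UQCRC1. None was mitochondrially encoded. Reads of 7 of the 14 may include those of an overlapping gene, since the strand setting of the counting is not given: COX6C (VPS13B), COX17 (POPDC2), ATP5PD (KCTD2), COX16 (a SYNJ2BP readthrough), SDHD (TIMM8B), UQCRFS1 (AC007786.1) and UQCC3 (LBHD1).

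**Figure D4:**
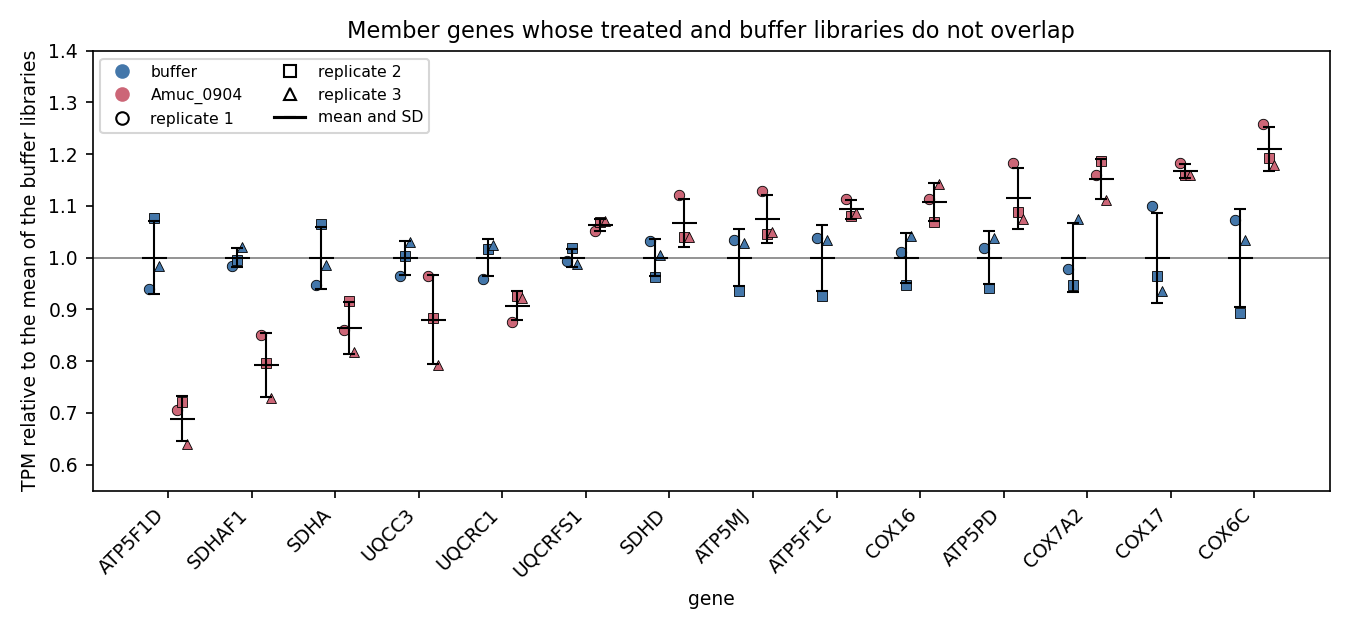
TPM relative to the mean of the buffer libraries (y axis) for the 14 tested genes whose treated and buffer libraries do not overlap, ordered by log2 fold change, with colours, symbols and bars for group, replicate, and mean and SD. ATP5F1D lies furthest from 1, and the 9 genes on the right are higher in treated libraries by 6.40% to 21.0% in the mean.

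The direction of these 14 genes mostly went with the base composition of their transcripts. Among nuclear members whose longest GENCODE 29 transcript has a GC content under 45%, 21 of 23 log2 fold changes were above 0, and 8 genes were higher in every treated library and 0 lower. At 55% GC or more, 4 of 10 were above 0, with 0 genes higher and 4 lower in every treated library (ATP5F1D, SDHAF1, UQCC3 and UQCRC1). Over all GC values, 7.00% of all tested genes were higher and 20.1% lower in every treated library. These shares were not worked out within GC bands, so the band counts have no background of their own. SDHA, with 49.8% GC, was the exception among the 5 lower genes. All tested genes showed the same order: their median log2 fold change was 0.03 under 45% GC, -0.07 from 45% to 55% and -0.18 from 55%. The medians of the nuclear members in the same bands were 0.11, 0.03 and -0.06, each above that of all genes. Across genes, the rank correlation of GC content with log2 fold change was -0.40 over 57 nuclear members and -0.43 over 14277 tested genes with a GC value. With the GC trend removed, log2 fold changes were 0.13 for ATP5F1C, 0.16 for ATP5PD and 0.11 for ATP5MJ, close to the values as reported. As given above, that of COX6C changed little too, those of COX7A2, ATP5F1D and SDHAF1 became smaller in size, and that of UQCRC1 changed sign. Such values are not given here for COX17, COX16, SDHD, UQCRFS1, SDHA and UQCC3. All these points come from the same 6 libraries, and the part of base composition in the members' differences was not tested beyond the values with the GC trend removed.

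**Figure D5:**
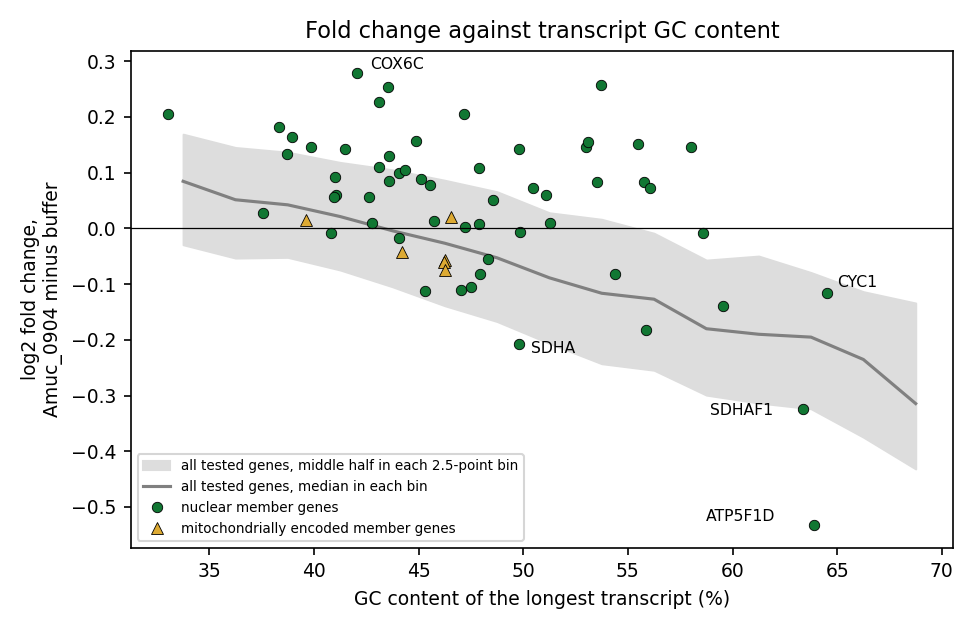
Log2 fold change (y axis, Amuc_0904 minus buffer) against the GC content of the longest transcript (x axis, percent) for nuclear (circles) and mitochondrially encoded (triangles) member genes, over the median (line) and the interval between the quartiles (shaded) of all tested genes in bins of GC. ATP5F1D (-0.53) lies below the shaded band at its GC content (63.9%), and many nuclear genes lie above the median line.

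Promoters of nuclear respiratory genes are known to hold sites of the activators NRF1, GABP (an ETS family factor) and YY1, and windows of members from both sides are shown to set these letters side by side. RefSeq windows on GRCh38.p14 (250 bases before to 50 bases after a start) were matched for 51 of 71 members. Motifs were searched on both strands as GCGCNNGCGC for NRF1, CCGGAAG for ETS and AAGATGGCG for YY1, and no matches of different motifs overlapped. A gene with several windows was counted once. The NRF1 letters were in windows of 17 of 51 members (33.3%), beside 9.98% of all 27305 genes with a window. The ETS letters were in 22 (43.1%, beside 12.2%) and the YY1 letters in 5 (9.80%, beside 2.14%). All genes with a window include genes not tested here. The median GC content was 62.0% for member windows and 58.3% for those of all genes, and its part in these shares was not tested. Below are 2 genes higher in every treated library (COX17, minus strand, chr3:119677357-119677656, and ATP5PD, minus strand, chr17:75046920-75047219) and 2 lower in every treated library (SDHA, plus strand, chr5:218070-218369, and UQCRC1, minus strand, chr3:48609597-48609896), with matches in capitals. They were taken from the members with a window whose groups did not overlap and whose unadjusted p was under 0.05, leaving out SDHAF1 (lower) and COX7A2 (higher), whose windows held 0 matches. For COX17, which has 2 windows, the one with more matches is given.
COX17: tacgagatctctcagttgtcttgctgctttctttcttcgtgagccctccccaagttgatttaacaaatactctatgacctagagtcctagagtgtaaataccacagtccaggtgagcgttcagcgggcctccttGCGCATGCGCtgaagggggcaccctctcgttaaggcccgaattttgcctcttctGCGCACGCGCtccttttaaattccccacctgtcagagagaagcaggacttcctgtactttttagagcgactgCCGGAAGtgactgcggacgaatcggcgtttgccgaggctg
ATP5PD: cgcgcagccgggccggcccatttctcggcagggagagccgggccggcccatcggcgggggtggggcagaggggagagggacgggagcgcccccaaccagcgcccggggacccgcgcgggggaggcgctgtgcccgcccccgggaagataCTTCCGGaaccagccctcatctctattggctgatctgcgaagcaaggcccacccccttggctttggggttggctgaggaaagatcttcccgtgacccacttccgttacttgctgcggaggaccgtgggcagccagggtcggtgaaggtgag
SDHA: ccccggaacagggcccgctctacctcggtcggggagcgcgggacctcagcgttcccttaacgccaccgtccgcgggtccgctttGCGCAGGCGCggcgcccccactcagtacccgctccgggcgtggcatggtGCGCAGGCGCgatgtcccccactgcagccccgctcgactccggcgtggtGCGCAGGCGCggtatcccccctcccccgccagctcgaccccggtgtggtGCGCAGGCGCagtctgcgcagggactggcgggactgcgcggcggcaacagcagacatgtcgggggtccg
UQCRC1: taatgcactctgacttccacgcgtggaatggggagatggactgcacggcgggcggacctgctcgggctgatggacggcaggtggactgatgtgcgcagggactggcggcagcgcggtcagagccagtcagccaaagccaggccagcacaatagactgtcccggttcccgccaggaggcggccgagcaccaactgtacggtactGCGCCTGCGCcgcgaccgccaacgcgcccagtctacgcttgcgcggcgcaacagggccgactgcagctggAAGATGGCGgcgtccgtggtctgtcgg

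COX17 holds 2 NRF1 matches and 1 ETS match, ATP5PD 1 ETS match on the reverse strand, SDHA 4 NRF1 matches in a row of near repeats, and UQCRC1 1 NRF1 and 1 YY1 match. NRF1 letters were thus found on both sides, and so were windows with no match. Over the tested members with a window, the median log2 fold change was 0.09 for the 16 with NRF1 letters and 0.08 for the 31 without. For ETS letters it was 0.07 for the 22 with them and 0.09 for the 25 without, with 19 of 22 and 16 of 25 log2 fold changes above 0. In every treated library 3 members with ETS letters were higher and 0 lower, against 5 and 3 of those without. Of all tested genes, 7.00% were higher and 20.1% lower, and these shares were not split by ETS letters. Whether the letters play a part in the members' differences was not tested. For YY1 letters the medians were 0.05 (5 with) and 0.08 (42 without). A match is a run of letters and not a measured binding site.

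Genes that work with these complexes but fall outside the naming pattern also gave no calls. Of 29 assembly and partner genes, 0 passed, 7 were higher and 3 lower in every treated library (7.00% and 20.1% of all tested genes were), and the median log2 fold change was 0.10. CYCS, the cytochrome c that carries electrons from complex III to complex IV, came closest. It was at 193, 170 and 182 TPM in buffer and at 231, 213 and 240 TPM in treated libraries, with no overlap (limma log2 fold change 0.33, adjusted p = 0.061). The limma adjusted p of CYCS was 0.040 with a filter of 5 TPM and 0.085 to 0.21 with each library left out in turn. COX7A2L, which links complexes III and IV, was at 56.5, 53.6 and 61.4 TPM in buffer and at 71.5, 63.7 and 70.6 TPM with Amuc_0904 (limma adjusted p = 0.11), and the complex IV assembly factor COA7 went from a mean of 15.7 to 19.1 TPM (adjusted p = 0.098). The F1 assembly factor ATPAF1, which acts on the beta subunit, was at 31.3, 33.1 and 29.8 TPM in buffer and at 29.3, 28.4 and 23.6 TPM with Amuc_0904, all below the buffer values (limma adjusted p = 0.26).

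Of 17 tested regulators of respiratory genes, 0 passed. The list holds the genes of NRF1, GABPA and YY1, and the coactivator PPARGC1A was under the filter. Log2 fold changes were above 0 for 10 of the 17, with a median of 0.04. Of 36 nuclear complex I subunit genes 0 passed, with a median log2 fold change of 0.0044. NDUFA4, named as a complex I gene but known as a complex IV subunit, is counted among the 29 partner genes. MT-RNR1, the small mitochondrial ribosomal RNA, was higher in every treated library (3036, 3003 and 3287 TPM, against 2825, 2519 and 2661 TPM, limma adjusted p = 0.12). This was not seen for any of the 13 protein-coding genes of the mitochondrial genome.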

How the data were processed

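The authors deposited 1 gene table in TPM for the 6 libraries, with RSEM named as the quantifier in the series' design text. Per the submitters' processing notes, edgeR, StringTie and HISAT2 were used, with no version or role stated. These notes list a mouse build (GRCm38.p6), while the table holds human Ensembl identifiers. The annotation and strand setting are not given in the sources used here. Columns were matched to samples by the sample descriptions, and groups follow the titles. Genes that reached 1 TPM in 3 or more libraries were fitted in limma 3.58.1 (R 4.3.3) on log2(TPM + 1), allowing the variance to trend with the mean. Tests were two-sided, with a Benjamini-Hochberg threshold of 0.05 over all 14421 tested genes. The scale understates changes of genes at a few TPM. Members and lists were chosen with earlier results of these data known. MT-ATP6 and MT-ATP8 end in P plus a number but are named in the pattern and were kept. Members given with values were any past the threshold, the mitochondrially encoded ones, paired isoforms, a fixed set of core subunits, and in each role the 2 with the largest change and the 2 with the highest mean. Members outside this rule, and list genes given with values, were chosen after their values were seen. GC content, length and positions came from GENCODE 29, matched by gene identifier, and promoter windows from RefSeq. Same-numbered libraries did not deviate together. Alternatives were another pseudocount, other filters, a block, left-out libraries, GC and length trends removed by loess (span 0.3), median centring, quantile normalization and rescaling. The workflow was tested on simulated data, where 53% of 1.5-fold and 92% of 2-fold changes were recovered. Smaller changes were not simulated, so a gene that did not pass may still have changed. Python 3.11.15 with matplotlib 3.10.9 drew the figures.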

Additional observations from a re-analysis of the deposited data

How the results depend on the processing

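In every alternative run 0 members rose. The count of members that fell, 1 as reported, was 0 with median centring, with no filter on low TPM, and with both buffer replicate 2 and Amuc_0904 replicate 3 left out (an alternative chosen after the data were seen), and lay between 0 and 1 with each library left out in turn. The gene is ATP5F1D each time, and its log2 fold change in those settings lay between -0.58 and -0.43. With the replicate number as a block its log2 fold change was -0.53 (limma adjusted p = 0.039). Residuals of same-numbered libraries correlated at -0.029, 0.075 and -0.094 over 14421 genes, and those of differently numbered libraries at between -0.12 and 0.14. Same-numbered libraries thus showed no shared deviation, which cannot tell whether they were cultured or processed together. Over all tested genes 53 rose and 144 fell as reported, 27 and 53 with the block, 7 and 2 with no filter, 78 and 354 with a filter of 5 TPM, 74 and 39 with the GC trend removed, 37 and 31 with the length trend removed, 43 and 42 with median centring, 46 and 56 with quantile normalization, 53 and 92 with mitochondrially encoded and ribosomal protein genes left out, 8 and 8 without both libraries named above, and 15 to 38 and 20 to 74 with each library left out in turn. The median log2 fold change of the members was above 0 in every alternative: 0.10 with the GC trend removed, 0.13 with the length trend removed, 0.14 with median centring, 0.10 with mitochondrially encoded and ribosomal protein genes left out, and between 0.04 and 0.08 with each library left out in turn. The cause of these shifts was not tested.

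Log2 fold changes of 49 tested members were recomputed in these settings, and of the 49 only ATP5F1D passed in any. The setting without both buffer replicate 2 and Amuc_0904 replicate 3 was read here for ATP5F1D alone, so sign changes of other members in it are not covered. Log2 fold changes changed sign in 18 of the 49, all at most 0.14 in size as reported. With the GC trend removed they became 0.061 (ATP5IF1), 0.16 (COX8A), 0.095 (CYC1), -0.019 (MT-ATP8), 0.027 (UQCC2) and 0.035 (UQCRC1). With the length trend removed they became 0.053 (ATP5IF1), 0.0096 (ATP5MC2), 0.0049 (COX6A1), 0.048 (COX8A), 0.063 (UQCC1) and 0.0025 (UQCC2). With median centring they became 0.073 (ATP5IF1), 0.025 (ATP5MC2), 0.073 (COX6A1), 0.072 (COX8A), 0.038 (MT-ATP6), 0.0064 (MT-CO1), 0.020 (MT-CO2), 0.023 (MT-CYB) and 0.064 (UQCC1). With quantile normalization they became 0.0073 (ATP5IF1), -0.0052 (COX4I1), 0.0052 (COX6A1) and 0.048 (UQCC1), and with mitochondrially encoded and ribosomal protein genes left out 0.020 (ATP5IF1), 0.019 (COX6A1), 0.018 (COX8A) and 0.0098 (UQCC1). With each library left out in turn the ranges that cross 0 were -0.057 to 0.055 (ATP5F1A), -0.029 to 0.034 (ATP5F1B), -0.048 to 0.039 (ATP5IF1), -0.023 to 0.056 (COX4I1), -0.087 to 0.10 (COX6A1), -0.047 to 0.062 (COX8A), -0.20 to 0.0086 (CYC1), -0.16 to 0.045 (MT-ATP6), -0.18 to 0.13 (MT-ATP8), -0.20 to 0.0024 (MT-CO1), -0.18 to 0.013 (MT-CO2), -0.034 to 0.051 (MT-CO3), -0.067 to 0.075 (SDHAF2) and -0.063 to 0.0081 (UQCC1). Among members given in the text with a log2 fold change over 0.2 in size, values with 1 library left out moved by over 1.5 times for UQCR11 (0.16 to 0.41), ATP5MK (0.12 to 0.27) and SDHAF4 (0.055 to 0.63). TPM keeps no record of depth, so no counting error can be given.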
